A study of Mus musculus with 10 samples.

Results

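The comparison described here sets hepatocytes taken at ZT18 against hepatocytes taken at ZT12, the interval that covers the first part of the night, when mice are active and feed. Zeitgeber time (ZT) counts hours from lights on. The members are the 5 libraries labelled ZT12A, ZT12B, ZT12C, ZT18A and ZT18B, of 10 libraries in the series. They hold 7783 of its 18378 cells, 4318 at ZT12 and 3465 at ZT18. For each library the counts of unique molecular identifiers (UMIs, 1 per captured RNA molecule) were summed over all cells, and each sum was 1 replicate. All groups were C57BL/6 male mice of 3 months after birth, on regular chow without restriction, anaesthetised with ketamine and xylazine. Hepatocytes were freed by collagenase perfusion, purified on a Percoll gradient and sequenced with the 10x Chromium single cell 3' kit, version 2. The labels name no animal, day or pool behind a library, so the p-values measure only the spread between libraries, which may be technical. That spread was estimated over all 10 libraries of the series. Of 14812 gene entries, 13847 were kept. Entries of the Mup family of major urinary proteins, Gm-numbered entries and pseudogenes were left out.

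The liver clock is a feedback loop in which ARNTL (BMAL1) with CLOCK or NPAS2 drives genes with E-boxes, among them those of its own repressors, the PER and CRY proteins and the REV-ERBs Nr1d1 and Nr1d2. REV-ERBs and RORs compete at ROR elements, including that of Arntl. The PAR bZIP factors DBP, TEF and HLF carry the rhythm to output genes through D-boxes, which NFIL3 also binds, as a repressor. At nightfall a mouse liver passes from the end of the daily fast, with fat burning and glucose production, to the intake, storage and secretion of the fed state.

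The libraries at ZT12 held 1454623, 7144803 and 1991992 UMIs, and those at ZT18 held 3181006 and 3711102. The median per cell ranged from 1588 to 2611 UMIs. Levels are given as CPM, counts-per-million of kept UMIs, scaled by edgeR's TMM factors, and the values of 1 gene are listed in the order ZT12A, ZT12B, ZT12C, then ZT18A, ZT18B. Hepatocyte markers were abundant in all 5 libraries, and of 6 cholangiocyte markers Sox9 rose, from 3.86 ± 1.38 to 15.2 ± 4.22 CPM (adjusted p = 0.0328), a call lost when any 1 of the 5 libraries was left out, while Spp1, the other one tested, stood at 29.1 ± 10.2 and 6.38 ± 4.08 CPM (adjusted p = 0.303). The summed level of the 6 was 44.1, 25.1 and 31.1, then 27.5 and 16 CPM. Albumin (Alb) ranged from 17748 to 46843 CPM. The summed levels of 10 macrophage, 7 lymphocyte and 4 neutrophil markers were at most 8.51, 0.451 and 7.94 CPM. Those of 8 endothelial and 7 stellate markers were at most 15.8 (ZT12C) and 14.2 CPM (ZT18A), and the 1 marker of each that was tested was not called. The ZT18 libraries stood apart in 4 ways. Both carry index sets of column 4, which no other library has, so the index column and the time cannot be told apart. Their share of UMIs on Gm-numbered entries was 0.737% and 0.7195%, against 0.2854% to 0.3273% at ZT12. ZT18A, labelled male, held 117 UMIs of the X-inactivation RNA Xist in 64 of 1678 cells. UMIs of the Y-linked genes Ddx3y, Eif2s3y, Kdm5d or Uty were found in 26.6% of those 64 cells and in 18.28% of the other cells of ZT18A. No Xist UMI was found in ZT18B or at ZT12. ZT18B held 1088 haemoglobin UMIs, 973 of them in 2 cells, against 28 in ZT18A and 1 to 10 at ZT12. Without cells that had an Xist UMI or 3 or more haemoglobin UMIs, an alternative added after the data were seen, 347 genes were called, 337 of them in common with the 346 below. The columns of the tables carry running numbers and not cell barcodes, so shared barcodes could not be counted. No 2 cells had identical counts. The summed counts of the 2 ZT18 libraries lay closer together than those of any 2 ZT12 libraries. Chi-square per degree of freedom was 5.763 for the ZT18 pair and 25.5, 24.02 and 34.02 for the ZT12 pairs. For the ZT6 pair it was 6.143. The labels do not say whether the ZT18 libraries come from separate animals. In sums over cells, fewer cells of a type and less RNA per cell cannot be told apart.

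From ZT12 to ZT18, relative levels fell for the metallothioneins Mt1 and Mt2 and the clock repressors Per1, Per3 and Ciart. They also fell for 8 of 11 PAR bZIP factors and outputs, and for single metabolic genes such as Pck1 and Cpt1a. Levels rose for Arntl, for chaperones such as Hsp90aa1 and Creld2, and for the water channel Aqp8. Several of these calls depended on single libraries, as given below. Of 8815 genes tested, 346 (3.93%) differed at an adjusted p below 0.05 (quasi-likelihood test of edgeR, Benjamini-Hochberg adjusted). At ZT18, 198 (2.25%) were higher and 148 (1.68%) lower, and 1733 had an unadjusted p below 0.05. The median fold was 2.64 among the genes that rose and 2.6 among those that fell. The libraries of the 2 times did not overlap for 197 of the 198 and 147 of the 148. Over all genes tested, both ZT18 libraries lay above all ZT12 libraries in 19.0% and below in 19.0%. Scaled by library size alone, 313 genes were called, 133 higher and 180 lower, and 281 were shared. The share of higher calls was thus 57.2% with TMM and 42.5% without, and the median log2 change of all genes was -0.04 and -0.15.

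The calls depended on having both ZT18 libraries. Without ZT18A 84 genes were called, without ZT18B 42 and without ZT12C 159. In the fits without each of the 5 libraries in turn, 333 of the 346 had a value in all 5. None of the 346 had another sign in a fit that gave it a value. This outcome was largely fixed beforehand, since leaving out a library can hardly reverse the sign where groups do not overlap. The groups did not overlap for 197 of the 198 genes called higher and 147 of the 148 called lower. The kept signs in these fits are thus no separate evidence of stability. Across these fits 35 genes, 24 higher and 11 lower, were called in all 5 of those fits. They include Arntl, Nr1d2, Per3, Dbp, Lpin1, Upp2, Mt1, Mt2, Hsp90aa1, Hspa4l, Chka, Aqp8, Tubb2a, Cldn1 and Abcg8. The plot of change against level shows the spread of calls over the range of abundance.

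**Figure D1:**
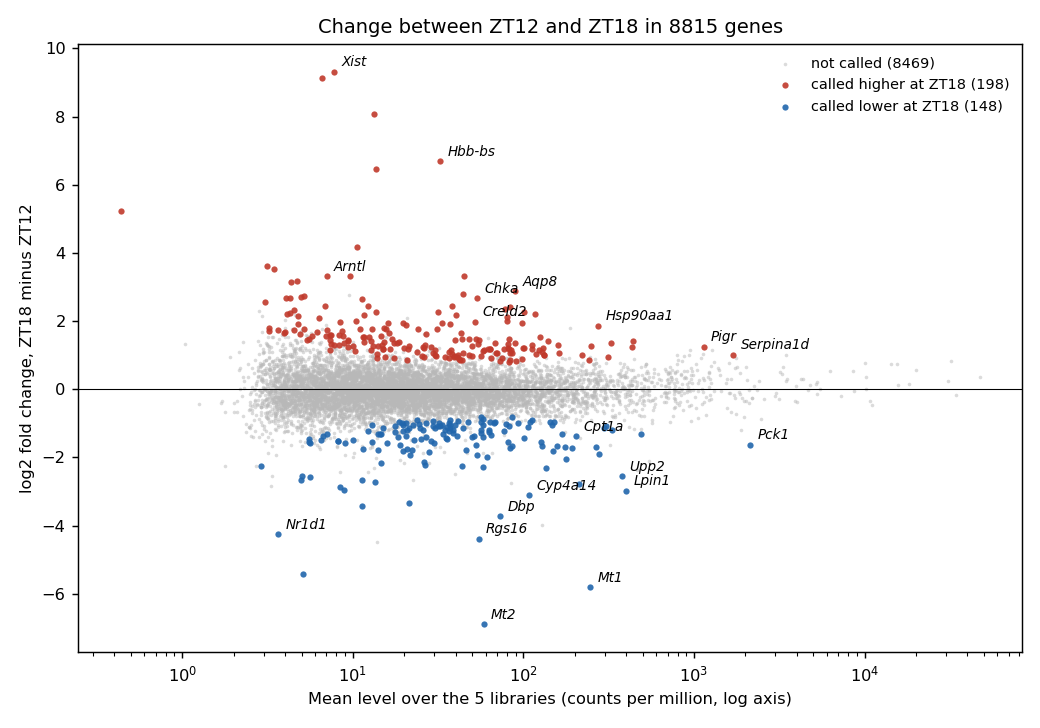
Change of each of 8815 genes from ZT12 to ZT18 (vertical axis, log2 fold change) against its mean level over the 5 libraries (horizontal axis, CPM, log scale). Grey points were not called, 198 red points were called higher and 148 blue points lower, with Mt1 and Mt2 lowest. The heights of Xist and of other genes with no UMI at ZT12 depend on the fit's prior count and are not measured folds.

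Promoter windows are shown for 6 clock genes, because their changes can be read beside the elements of the loop. They are from RefSeq (GRCm38.p6), 5′ to 3′ on the gene's strand, with the motif in capitals. Arntl (chr7:113207529-113207555, + strand) and Nfil3 (chr13:52981040-52981091, - strand) hold a ROR element, AGGTCA preceded by 5 bases of which at least 4 are A or T. Per1 (chr11:69098743-69098828, + strand) and Ciart (chr3:95882299-95882384, - strand) hold the E-box CACGTG. Per3 (chr4:151044823-151044910, - strand) and Coq10b (chr1:55052568-55052655, + strand) hold the D-box TTATGTAA, and in Nfil3 and Coq10b the motif reads on the other strand. These 6 genes were chosen because they hold a motif.
Arntl: gaaggcagAAAGTAGGTCAgggacgga
Nfil3: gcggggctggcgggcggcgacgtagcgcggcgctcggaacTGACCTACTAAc
Per1: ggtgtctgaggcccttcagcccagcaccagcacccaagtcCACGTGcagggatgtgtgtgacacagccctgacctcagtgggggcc
Ciart: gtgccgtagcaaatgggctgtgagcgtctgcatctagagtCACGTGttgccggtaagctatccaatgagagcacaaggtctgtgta
Per3: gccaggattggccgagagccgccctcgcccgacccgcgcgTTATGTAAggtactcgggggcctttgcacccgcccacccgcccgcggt
Coq10b: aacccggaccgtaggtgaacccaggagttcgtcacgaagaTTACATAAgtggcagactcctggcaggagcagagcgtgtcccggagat

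Both strands of promoters from 250 bases before to 50 after the start were searched. A gene counted as holding a motif when any of its promoters did. Of the 27025 genes with a promoter in the table, 8.09% held the E-box, 1.11% the D-box and 2.96% the ROR element. The D-box was in 1 of 11 PAR bZIP factors and outputs (Coq10b) and 1 of 6 repressors (Per3), and the ROR element in 1 of 6 activators and receptors (Arntl). Among the 6 clock repressors with a promoter, 4 held the E-box (Bhlhe41, Ciart, Cry1 and Per1). Of these, Cry1 was not called and Bhlhe41 was not tested. The E-box was in 0 of 6 activators and receptors and in 2 of 11 PAR bZIP factors and outputs (Coq10b and Tef). By symbol, 151 of the 198 genes called higher and 120 of the 148 called lower had a promoter. The E-box was in 13 (8.61%) of the former and 21 (17.5%) of the latter, against 12.6% of 6903 tested genes. The D-box was in 1 and 3 of them (0.797% of tested genes), and the ROR element in 4 and 3 (2.25% of tested genes). A match describes these letters and is not a bound site.

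Of the 27 genes on 3 lists of clock genes and clock outputs, 25 were tested and 18 called, against 3.93% of all genes. Like the other lists, these were chosen with earlier results of these data known, so the share is a description and not a test. The list of PAR bZIP factors and outputs gave 8 falls and 1 rise of the 18. Among the activators and the REV-ERB and ROR receptors, 4 of 7 rose and 2 fell, and by library size alone 2 rose and 2 fell. Arntl, the core activator, stood at 3.45, 1.13 and 0.902 CPM at ZT12 and at 16.5 and 13.1 CPM at ZT18. Both ZT18 libraries were above all ZT12 libraries, with a log2 change of 3.32 ± 0.47 (SE; adjusted p = 0.0021). Its partner Clock stood at 31.7, 18.9 and 17.1, then 38.4 and 47.8 CPM, a log2 change of 0.99 ± 0.25 (adjusted p = 0.0392) with no overlap. Npas2, which can replace Clock, had no UMI at ZT12 and 7 at ZT18. Against a floor of 3 counts over the ZT12 group, it was at least 3.88-fold higher (adjusted p = 0.0438). Rora, an activator at ROR elements, stood at 110 ± 17.5 CPM (SD, n = 3) at ZT12 and 135 ± 10.6 (SD, n = 2) at ZT18 and was not called (adjusted p = 0.422).

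The REV-ERBs, which repress Arntl, went down. Nr1d2 stood at 88.2, 70.1 and 68.1, then 21.8 and 17.5 CPM. Its groups did not overlap, with a log2 change of -1.93 ± 0.23 (adjusted p = 4.4e-04). Nr1d1 was already scarce, at 1.38, 7.23 and 9.02, then 0.331 and 0.291 CPM. With 73 UMIs at ZT12 and 2 at ZT18, it was 22-fold lower, with a 95% Clopper-Pearson interval of 5.87 to 185 that covers counting error only (adjusted p = 0.0131). Its level at ZT6 was 32.3 CPM. Of the 6 activator and receptor calls, 4 were left without ZT12B or ZT12C (2 of them rises), 3 without ZT18A, and 2 without ZT18B, Arntl and Nr1d2. Npas2 was lost in all 5 fits that left out a library, and Clock in 4.

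Among the repressors, 3 of 7 tested fell and the others were not called. Per1 stood at 20.7, 17.7 and 25.7, then 4.63 and 4.66 CPM. Per3 stood at 39.3, 25.1 and 28.4, then 7.28 and 8.45 CPM. Both groups of each were apart, with log2 changes of -2.17 ± 0.41 (adjusted p = 0.0104) for Per1 and -1.93 ± 0.28 (adjusted p = 0.0021) for Per3. Ciart, a repressor of the CLOCK complex, went from 22.7, 11.2 and 19.4 to 2.32 and 0.874 CPM, a log2 change of -3.41 ± 0.59 (adjusted p = 0.00614). Per2, the other abundant period gene, was not called, at 24.1 ± 6.98 and 22.2 ± 2.39 CPM, with a log2 change of -0.06 ± 0.45. Cry1 (20.8 ± 9.56 and 32.2 ± 2.23 CPM, adjusted p = 0.241), Cry2 (32.1 ± 4.14 and 21.9 ± 1.31, adjusted p = 0.26) and Bhlhe40 (127 ± 52.7 and 169 ± 9.58, adjusted p = 0.442) were not called either. Bhlhe41 was below the filter, at 2.35 and 1.41 CPM. Per1 lost its call without ZT18A or ZT18B, Ciart without ZT18B, and Per3 kept it in all 5 fits.

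Of 11 PAR bZIP factors and clock outputs tested, 8 fell and 1 rose, with a median log2 change of -1.71 (all genes, -0.04). Dbp stood at 74.4, 157 and 115 CPM at ZT12 and at 8.27 and 9.33 at ZT18. The log2 change was -3.73 ± 0.33 (adjusted p = 6.7e-05). Tef, a second PAR bZIP factor, fell from 111 ± 15.4 to 38.2 ± 4.52 CPM (log2 -1.54 ± 0.22, adjusted p = 0.0021). Hlf, the third, stood at 93.5 ± 14 and 66.8 ± 0.363 CPM and was not called (adjusted p = 0.231). The repressor Nfil3 went the other way, from 14.5, 14.6 and 7.22 to 31.1 and 53.3 CPM, a log2 change of 1.78 ± 0.30 (adjusted p = 0.0052).

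The outputs that fell have different functions. Rgs16, a regulator of G protein signals, went from 115, 33.6 and 116 to 6.62 and 1.75 CPM (log2 -4.39 ± 0.81, adjusted p = 0.00874). Lpin1, a phosphatidate phosphatase, went from 826, 423 and 601 to 66.2 and 89.2 CPM (log2 -2.98 ± 0.31, adjusted p = 1.4e-04). Upp2, a uridine phosphorylase, went from 772, 441 and 475 to 98.6 and 93 CPM (log2 -2.55 ± 0.30, adjusted p = 3.9e-04). In each of these the 2 ZT18 libraries were below all 3 at ZT12. Usp2, a deubiquitinase, Coq10b, a coenzyme Q carrier, and Por, the electron donor of cytochrome P450s, fell, with log2 changes of -2.28, -1.71 and -1.70 (adjusted p of 0.0021, 0.00658 and 0.0131). Wee1 was below the filter, and Leo1 was not called (log2 1.58, adjusted p = 0.0922). Without ZT18B, 3 of the 9 calls in this list were left, Dbp, Lpin1 and Upp2. Without ZT18A 7 were left.

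**Figure D2:**
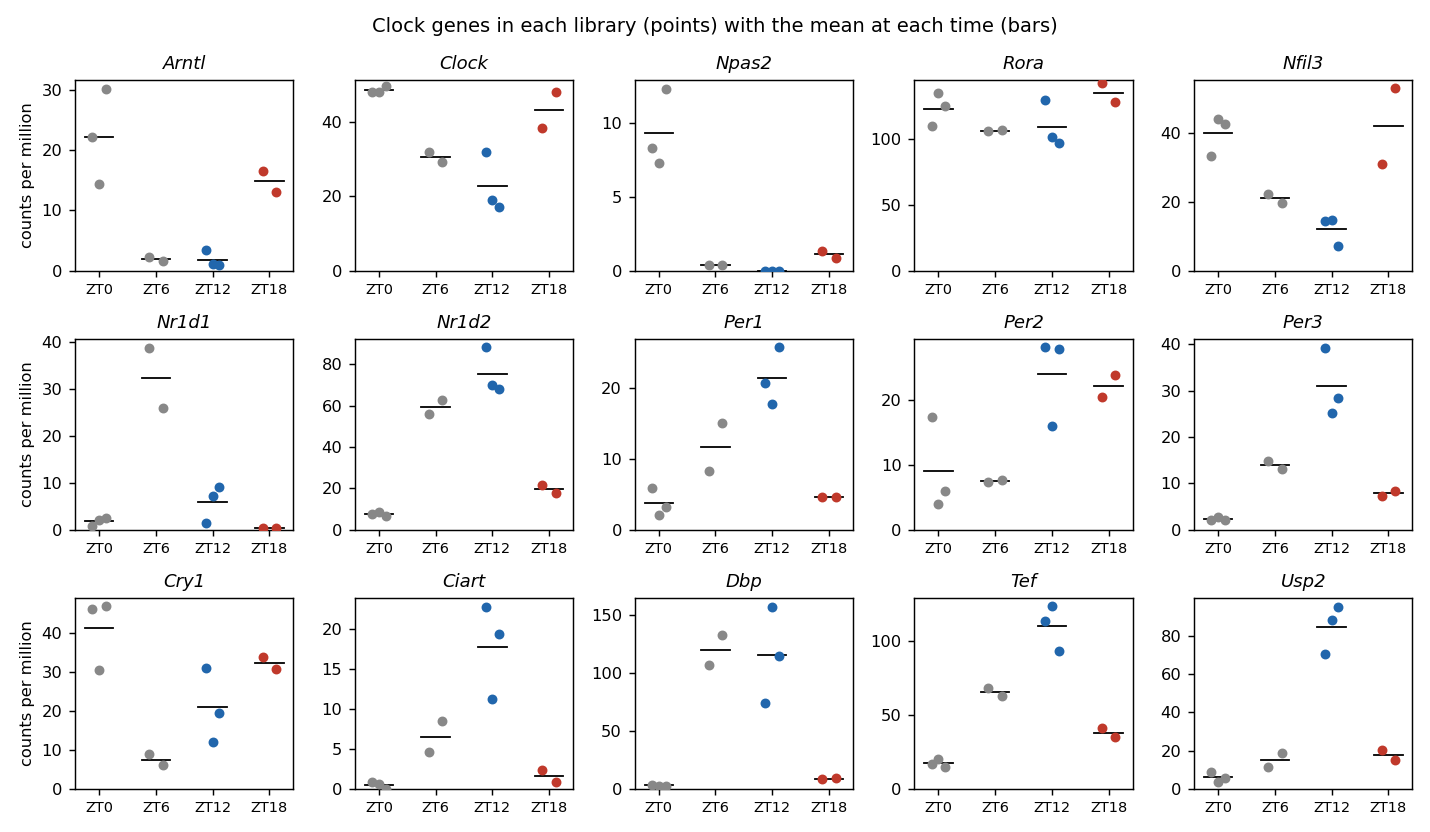
Levels of 15 clock genes (CPM) in each library, one point per library, at the 4 times, with the mean as a bar. Blue marks ZT12, red ZT18 and grey the other times. Arntl and Nfil3 lie higher in both ZT18 libraries, and Nr1d2, Per1, Per3, Ciart, Dbp, Tef and Usp2 lie lower, whereas Per2 overlaps.

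Among genes of protein folding, 6 of 25 of the endoplasmic reticulum and 5 of 23 other chaperones rose, and none was called lower. The lumen of the endoplasmic reticulum folds secreted proteins with chaperones and disulphide isomerases, and its genes respond to unfolded protein through the ER stress element. The share of rises over all genes was 2.25%, and the median log2 change of the 25 was 0.46. DESeq2 also called 6. Creld2, an isomerase-like chaperone, stood at 9.65, 29.9 and 29.8, then 61.6 and 130 CPM. Sdf2l1, a partner of the chaperone BiP, stood at 10.3, 16.9 and 24.8, then 49.6 and 83.9 CPM. Neither overlapped, with log2 changes of 1.98 ± 0.43 (adjusted p = 0.0217) and 1.92 ± 0.36 (adjusted p = 0.00942). In both genes ZT18B was higher than ZT18A. Syvn1, the ubiquitin ligase of ER degradation, rose by 1.47 ± 0.29 (adjusted p = 0.0136), and Manf, a secreted ER stress protein, by 1.31 ± 0.33 (adjusted p = 0.0383). Atf4, a stress transcription factor, rose by 1.14 ± 0.23 (adjusted p = 0.015), and Dnajb11, a co-chaperone of BiP, by 0.90 ± 0.22 (adjusted p = 0.0328). BiP itself, Hspa5, stood at 629, 586 and 724, then 991 and 1298 CPM. Its libraries did not overlap, but it was not called (log2 0.82 ± 0.27, adjusted p = 0.107). Nor was the isomerase P4hb (876 ± 219 and 1079 ± 93.8 CPM, adjusted p = 0.586). Herpud1 had a negative value (625 and 280 CPM, adjusted p = 0.154). Without ZT18B, 0 of the 6 were called, without ZT12C 2, and without ZT12A or ZT18A 3. Scaled by library size alone, 4 were called. Alb, the main secreted product, rested at 24465 ± 9367 and 43182 ± 5177 CPM, with no overlap of the groups, and was not called (adjusted p = 0.298).

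The ER stress element is CCAAT, 9 bases, then CCACG. It was in 9 of 21 promoters of this list (42.9%) and in 0.137% of all genes with a promoter (0.203% of tested genes). Of the 6 genes that rose, Creld2 and Syvn1 held it. They are shown with Hspa5 and with a heat shock element (blocks of GAA, TTC and GAA, 2 bases apart) of the cytosolic chaperone Hsph1. The windows are chr15:88819480-88819578 (+), chr19:6046492-6046575 (+), chr2:34771985-34772083 (+) and chr5:149636280-149636308 (-), from the same RefSeq table. In Creld2 and Hsph1 the motif reads on the other strand.
Creld2: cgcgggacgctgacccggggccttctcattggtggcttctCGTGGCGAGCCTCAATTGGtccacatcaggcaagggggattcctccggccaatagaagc
Syvn1: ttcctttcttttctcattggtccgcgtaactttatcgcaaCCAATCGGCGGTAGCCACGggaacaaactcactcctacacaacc
Hspa5: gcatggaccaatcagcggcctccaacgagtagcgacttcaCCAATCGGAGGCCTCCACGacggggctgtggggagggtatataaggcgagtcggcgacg
Hsph1: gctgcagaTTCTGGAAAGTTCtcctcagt

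Of 23 cytosolic and mitochondrial chaperones tested, 5 rose, with a median log2 change of 0.55 over the list, and 6 were called by DESeq2. Hsp90aa1, the inducible HSP90, stood at 132, 126 and 140, then 436 and 536 CPM. The groups were far apart, with a log2 change of 1.87 ± 0.22 (adjusted p = 3.9e-04). Hspa4l, a nucleotide exchange factor for HSP70, stood at 14.5, 16.6 and 15.3, then 58.6 and 62.1 CPM (log2 1.94 ± 0.19, adjusted p = 1.1e-04). The small heat shock protein Hspb1 went from 4.13, 4.11 and 6.31 to 10.6 and 27.1 CPM, with ZT18B highest (log2 2.0 ± 0.43, adjusted p = 0.0199). Hsph1 rose from 48.5 ± 8.56 to 99.5 ± 5.97 CPM (adjusted p = 0.0427). Fkbp4, an HSP90 co-chaperone, rose from 93.1 ± 17.4 to 190 ± 20.2 CPM (adjusted p = 0.019). The constitutive Hspa8 (672 ± 124 and 983 ± 34.3 CPM, adjusted p = 0.204) and Hsp90ab1 (600 ± 141 and 1100 ± 201, adjusted p = 0.103) were not called. The heat shock element was in 4 of 19 promoters of the list (21.1%) and in 0.662% of all genes. Hsp90aa1 and Hspa4l were called in all 5 fits that left out a library. Without ZT18B these 2 were left, and with any 1 of the others left out 3 were.

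Glucocorticoids are adrenal hormones that peak near nightfall in mice. Of 14 genes that they induce 5 fell, against 1.68% of all genes. The median log2 change was -1.59, and 12 of the 14 values were negative, against 4693 of 8815 over all genes. The metallothioneins, which bind zinc and copper, had the greatest falls among the named genes. Mt1 stood at 618, 412 and 189 CPM at ZT12 and at 5.63 and 8.74 at ZT18. Mt2 stood at 154, 84.9 and 52.3, then 0.331 and 1.17 CPM. The log2 changes were -5.80 ± 0.56 (adjusted p = 1.1e-04) and -6.90 ± 0.79 (adjusted p = 3.9e-04). ZT12A was the highest library for both, and both kept their calls with any 1 library left out. Lcn2, a siderophore-binding protein, fell by 2.53 ± 0.63 on the log2 scale (adjusted p = 0.0383), and Per1 and Pck1, also in this list, fell as given above and below. Tat, a classic target, stood at 2921, 1083 and 1780, then 1767 and 1752 CPM and was not called (adjusted p = 0.899). Neither was the receptor Nr3c1 (105 and 111 CPM, adjusted p = 0.867), nor Errfi1 (1173 ± 344 and 808 ± 146 CPM, adjusted p = 0.367). DESeq2 called 7 lower and 1 higher. Without ZT18A or ZT18B, 2 of the list were called lower, and without ZT18B 1 was called higher.

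Genes of fatty acid oxidation, induced in fasting through PPARA, gave 4 falls and 1 rise among 23 tested, with a median log2 change of -0.21. Over all genes, 1.68% fell and 2.25% rose, with a median of -0.04. Cpt1a, which admits fatty acids to mitochondria, stood at 314, 267 and 231, then 117 and 92.4 CPM. Its groups were apart (log2 -1.37 ± 0.22, adjusted p = 0.00406). The omega-hydroxylase Cyp4a14 stood at 84.1, 296 and 120, then 13.9 and 25.4 CPM (log2 -3.10 ± 0.68, adjusted p = 0.0225). Its relative Cyp4a10 went from 254 ± 47.5 to 61.7 ± 9.58 CPM (adjusted p = 0.0163), although reads of these near copies may be split between them. The pantetheinase Vnn1 fell by 1.64 ± 0.41 (adjusted p = 0.0395). The peroxisomal enzyme Ehhadh rose by 1.14 ± 0.30 (adjusted p = 0.049). Without ZT18B 0 of these 5 calls were left, and without ZT18A 1, Cpt1a. Without ZT12C 3 members were called, all lower.

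Lipid synthesis was called for few genes. Over all genes, 2.25% rose and the median log2 change was -0.04. Of 16 fatty acid synthesis genes, Elovl3 and Fasn rose, and the median log2 change was 0.31. Fasn, the synthase, stood at 345, 249 and 248, then 769 and 551 CPM. It was higher in both ZT18 libraries (log2 1.24 ± 0.29, adjusted p = 0.0315). The elongase Elovl3 went from 30.3, 19.4 and 60.9 to 180 and 110 CPM (log2 2.0 ± 0.43, adjusted p = 0.0212). Scd1, the desaturase, stood at 7079, 3148 and 4594, then 6578 and 4358 CPM. It overlapped, with a log2 change of 0.15 ± 0.36. Of 20 cholesterol synthesis genes, Mvd (9.74 ± 1.43 to 27.6 ± 1.17 CPM, adjusted p = 0.0443) and Lss (16.2 ± 3.33 to 41.5 ± 2.63 CPM, adjusted p = 0.0422) rose. The list's median was 0.12 with TMM, and by library size alone its median was 0.00 and 0 members were called. Insig2, an ER protein that restrains sterol synthesis, was the 1 of 9 sterol sensing genes that rose (155 ± 43.6 to 314 ± 23 CPM, adjusted p = 0.0412), and it too was not called by library size alone. All 5 genes of these lists lost their calls without ZT18A and without ZT18B, Fasn also without ZT12B or ZT12C, Elovl3 without ZT12A, and Mvd, Lss and Insig2 in all 5 such fits.

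Among 17 genes of triglyceride handling, 2 rose, with Agpat2 among them, and Lpl and Lpin1 fell (2.25% and 1.68% over all genes). Lpl encodes lipoprotein lipase, which adult hepatocytes hold little of. It stood at 17.9, 26.1 and 55.9, then 4.3 and 2.33 CPM (log2 -3.34 ± 0.66, adjusted p = 0.0136). Both ZT18 libraries were below all ZT12 libraries. Agpat2, which makes phosphatidic acid, rose from 225 ± 39.9 to 440 ± 17.6 CPM (adjusted p = 0.0292). Apob (adjusted p = 0.317) and Dgat2 (adjusted p = 0.182) were not called. Lpl and Agpat2 lost their calls without either ZT18 library, and Agpat2 also without ZT12A.

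Of 12 genes of gluconeogenesis and fasting, Pck1 and Sds fell, against 1.68% of all genes. The list's median log2 change was -0.24 (all genes, -0.04). Pck1, the gatekeeper of gluconeogenesis, stood at 3574, 2791 and 2374, then 1088 and 809 CPM. It was among the most abundant genes called (log2 -1.62 ± 0.30, adjusted p = 0.00942). Sds, which turns serine into pyruvate, stood at 265, 155 and 204, then 60.9 and 57.1 CPM (log2 -1.81 ± 0.37, adjusted p = 0.0163). In both, the groups did not overlap, and Fbp1 (662 ± 165 and 709 ± 20 CPM, adjusted p = 0.884) was not called. Foxo1, the transcription factor that insulin restrains, was the 1 of 17 insulin and FoxO genes called, from 79.9, 58.7 and 83.9 to 28.8 and 31.5 CPM (log2 -1.29 ± 0.22, adjusted p = 0.00535). Its target Igfbp1 stood at 300, 119 and 426, then 153 and 421 CPM and did not differ by the test (adjusted p = 0.984). The glucose transporter Slc2a2 fell from 428 ± 105 to 186 ± 25.9 CPM (adjusted p = 0.0239), while the fructose kinase gene Khk was not called (adjusted p = 0.594). Gyg, the primer of glycogen, fell from 9 ± 2.04 to 3.22 ± 0.807 CPM (adjusted p = 0.0428). Ulk1, a kinase that starts autophagy, fell from 54.2 ± 6.33 to 21.1 ± 4.75 CPM (adjusted p = 0.00942). Except for Ulk1 without ZT18A, all of these calls were lost without ZT18A and without ZT18B. Those of Slc2a2 and Gyg were also lost without ZT12A or ZT12C.

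The sterol exporters Abcg5 and Abcg8, which form 1 pump that moves cholesterol and plant sterols into bile, both fell. Abcg8 stood at 64.1, 54.2 and 73.5, then 15.2 and 11.4 CPM, and Abcg5 at 42, 34.7 and 40.6, then 11.3 and 15.7 CPM. The log2 changes were -2.26 ± 0.28 (adjusted p = 8.0e-04) and -1.51 ± 0.23 (adjusted p = 0.00243). Both partners were lower in each ZT18 library than in any ZT12 library, and Abcg5 alone lost its call without ZT18A. Baat, which joins bile acids to taurine, rose from 112 ± 14.9 to 233 ± 19.4 CPM (adjusted p = 0.0123), a call lost without either ZT18 library. The importers Slc10a1 (adjusted p = 0.879) and Slco1b2 (1288 ± 461 and 714 ± 23.3 CPM, adjusted p = 0.244) were not called. Of 25 xenobiotic genes 22 had negative values (4693 of 8815 over all genes), with a median log2 change of -0.61. Of the 25, 3 were called lower, against 1.68% of all genes. The 3 called were Por and the drug-sensing receptors Nr1i3 (134, 88.6 and 129, then 38.1 and 35.9 CPM, adjusted p = 0.00614) and Nr1i2 (58.6 ± 15.3 and 30.2 ± 0.578 CPM, adjusted p = 0.0444). The P450s Cyp3a11 (adjusted p = 0.65) and Cyp2e1 (adjusted p = 0.468) were not. The summed level of 8 pericentral landmark genes was 11836, 7284 and 13186 CPM at ZT12 and 7459 and 8210 at ZT18. All 8 had negative values, against 4693 of 8815 over all genes (median log2 -0.93), 0 were called by edgeR or DESeq2, and 5 had an unadjusted p below 0.05. The 8 periportal landmark genes summed to 3162, 3206 and 3092, then 4860 and 4186 CPM. Of these 8, 6 had positive values, against 4122 of 8815 over all genes (median log2 0.22), and 1, Pigr, was called higher. Several of the P450s are pericentral genes, and the part of the landmarks' shifts in the xenobiotic list's median was not tested. The 3 xenobiotic calls were lost without either ZT18 library, and that of Nr1i2 also without ZT12C.

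Aqp8, a water channel of the canalicular membrane and mitochondria, stood at 24.1, 29.2 and 22.1, then 199 and 173 CPM (log2 2.87 ± 0.30, adjusted p = 1.6e-04). Chka, the choline kinase that opens phosphatidylcholine synthesis, stood at 27.6, 14 and 11.3, then 120 and 93.9 CPM (log2 2.68 ± 0.34, adjusted p = 9.3e-04). Both were well clear of ZT12 in each ZT18 library. Chka was among the 2 of 14 methionine and one-carbon genes called, both higher, against 2.25% of all genes. Bhmt, of the methionine cycle, missed the threshold (860 ± 321 and 1896 ± 569 CPM, adjusted p = 0.0595). The tubulin Tubb2a stood at 13.1, 12.5 and 14, then 83.4 and 99.1 CPM (log2 2.80 ± 0.21, adjusted p = 1.2e-05). The tight junction protein Cldn1 went from 13.6 ± 2.5 to 75.3 ± 3.98 CPM (adjusted p = 6.7e-05), and Lgalsl, a galectin-like protein, from 4.78 ± 3.12 to 23.6 ± 4.09 CPM (adjusted p = 0.0021). These 5 genes were called in all 5 fits that left out a library. Serpina3c (31.1 ± 19.4 to 160 ± 5.2 CPM, adjusted p = 0.0289) and Serpina1d (1208 ± 117 to 2444 ± 202 CPM, adjusted p = 0.0313) rose too, but belong to families of near copies, are uncertain and lost their calls without ZT12A, ZT18A or ZT18B (Serpina3c also without ZT12B, Serpina1d without ZT12C). Among falls outside the lists, Pcsk4, a convertase, went from 20.3 ± 4.44 to 3.11 ± 0.279 CPM (adjusted p = 0.00243). Gpcpd1, a phosphodiesterase of choline lipids, went from 198 ± 95.1 to 39.2 ± 14.2 CPM (adjusted p = 0.00764), and Slc25a47, a mitochondrial carrier, from 642 ± 49.6 to 257 ± 44.6 CPM (adjusted p = 0.00797). Pcsk4 was not called without ZT18B, and Gpcpd1 and Slc25a47 without either ZT18 library.

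Of 12 hepatokines and feeding signals tested, 3 rose, against 2.25% of all genes, with a median log2 change of 0.05 over the list and 7 positive values. Fst, encoding follistatin, stood at 4.13, 6.38 and 2.71, then 25.2 and 19.8 CPM (log2 2.19 ± 0.41, adjusted p = 0.00942). Inhba, encoding a subunit of activin, which follistatin binds, stood at 7.58, 11.1 and 8.12, then 34.8 and 37.3 CPM (log2 1.94 ± 0.43, adjusted p = 0.0237). Transcripts of both genes thus rose, with no overlap between times. Both calls were lost without either ZT18 library, and that of Inhba also without ZT12A or ZT12C. Gdf15, a stress hormone that acts on appetite, rose from 7.25 ± 1.28 to 20 ± 6.31 CPM (adjusted p = 0.0246). Igf1 and Selenop were not called (adjusted p of 0.93 and 0.876). Without ZT18B 0 of the 3 were called, and without ZT18A or ZT12C 1. Of 15 immediate early genes, Btg2 (41.9 ± 8.21 to 107 ± 17.3 CPM, adjusted p = 0.00614) and Jun (55 ± 6.72 to 123 ± 3.55 CPM, adjusted p = 0.00535) rose, against 2.25% of all genes. Positive values were found in 13 of 15, against 4122 of 8815 genes tested. Both lost their calls without ZT18B, and Jun also without ZT18A. Such genes also respond to tissue dissociation, and the part of handling in their levels was not tested. Of 28 plasma protein genes 2 fell, against 1.68% of all genes. They were the acute phase gene Saa1 (202, 141 and 616, then 39.7 and 52.5 CPM, adjusted p = 0.0327) and Lcn2. Both were lost without ZT12A, ZT12C, ZT18A or ZT18B. Pigr, the receptor that carries IgA into bile, rose from 735 ± 125 to 1746 ± 262 CPM (adjusted p = 0.024), a call lost without ZT12C or either ZT18 library. It is 1 of the 8 periportal landmark genes.

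Some rises involve genes with near-identical copies, to which reads may be assigned differently. Rps12 stood at 5.51, 7.37 and 16.7, then 96 and 97.1 CPM (log2 3.31 ± 0.36, adjusted p = 1.9e-04). It was 1 of 6 of 91 ribosomal protein genes called, all higher, with Fau, Rpl9, Rpl10, Rpl27 and Rps27. The median log2 change of the 91 was 0.32, against -0.04 over all genes, of which 2.25% rose. Beside them, entries with -ps in the name took 0.18% and 0.1887% of UMIs at ZT18 and 0.0396% to 0.04935% at ZT12, and their part in these calls was not tested. Rps12, Fau and Rpl9 kept their calls with any 1 library left out, and Rpl10, Rpl27 and Rps27 lost theirs without ZT12B, ZT18A or ZT18B, and Rpl10 and Rpl27 also without ZT12A. Pgk1 (6.46 ± 0.869 to 18.9 ± 0.0569 CPM, adjusted p = 0.0142) and Eno1b (3.74 ± 2.26 to 22.7 ± 0.718 CPM, adjusted p = 0.00614) have processed copies as well, and Pgk1 was lost without either ZT18 library and Eno1b without ZT18B. Cyp3a41b, a P450 known from female liver, stood at 1.38, 1.13 and 1.8, then 28.5 and 20.4 CPM (log2 4.16 ± 0.58, adjusted p = 0.00199). Xist was found in ZT18A and not in ZT18B, and Cyp3a41b was high in both. Without the cells that held an Xist UMI or 3 or more haemoglobin UMIs, Hbb-bs was called, at a log2 change of 4.03 (adjusted p = 0.00297), and Cyp3a41b too. A cell can express Xist and have no Xist UMI counted, so this fit need not leave out all such cells. The source of the Cyp3a41b counts was not tested. The haemoglobin values rest on ZT18B. Hbb-bs stood at 0.689, 0.709 and 0.902, then 5.96 and 154 CPM, Hba-a1 at 1.65 and 66.2 CPM at ZT18, and Hba-a2 at 0.662 and 65.3. Hbb-bt had no UMI at ZT12 and 113 at ZT18, at least 62.6-fold more against the floor of 3 counts over the group (adjusted p = 0.0211). Without ZT18B none of the 4 haemoglobin genes passed the filter on low counts. The erythroid enzyme gene Alas2 stood at 82 ± 12.6 and 83.9 ± 15.6 CPM (adjusted p = 0.958).

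Other lists had 1 call or none. In the urea cycle (8 genes) and among translation factors (21), 0 genes were called by edgeR or DESeq2, and 2 in each had an unadjusted p below 0.05. Of 22 ribosome assembly genes 0 were called by edgeR and 1 by DESeq2, with 2 at an unadjusted p below 0.05. Of 18 iron and haem genes these counts were 0, 1 and 4, and of 4 cold-inducible genes 0, 1 and 1. Of 30 secretory genes, Sec11c, of the signal peptidase, rose (40.4 ± 10.5 to 93.4 ± 1.36 CPM, adjusted p = 0.0315), a call lost without ZT12A, ZT12C, ZT18A or ZT18B. Of 27 genes of amino acid breakdown, Sds was called, and Tdo2, which degrades tryptophan, had 2354 ± 592 and 1346 ± 49.5 CPM (adjusted p = 0.131). Of 20 genes under growth hormone and male control, Elovl3 was called. Cps1 (adjusted p = 0.775) and Arg1 (adjusted p = 0.176) of the urea cycle and the elongation factor Eef1a1 (adjusted p = 0.694) are the abundant examples. Of 13 mitochondrially encoded genes, 0 were called by edgeR, 1 by DESeq2, and 3 had an unadjusted p below 0.05.

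**Figure D3:**
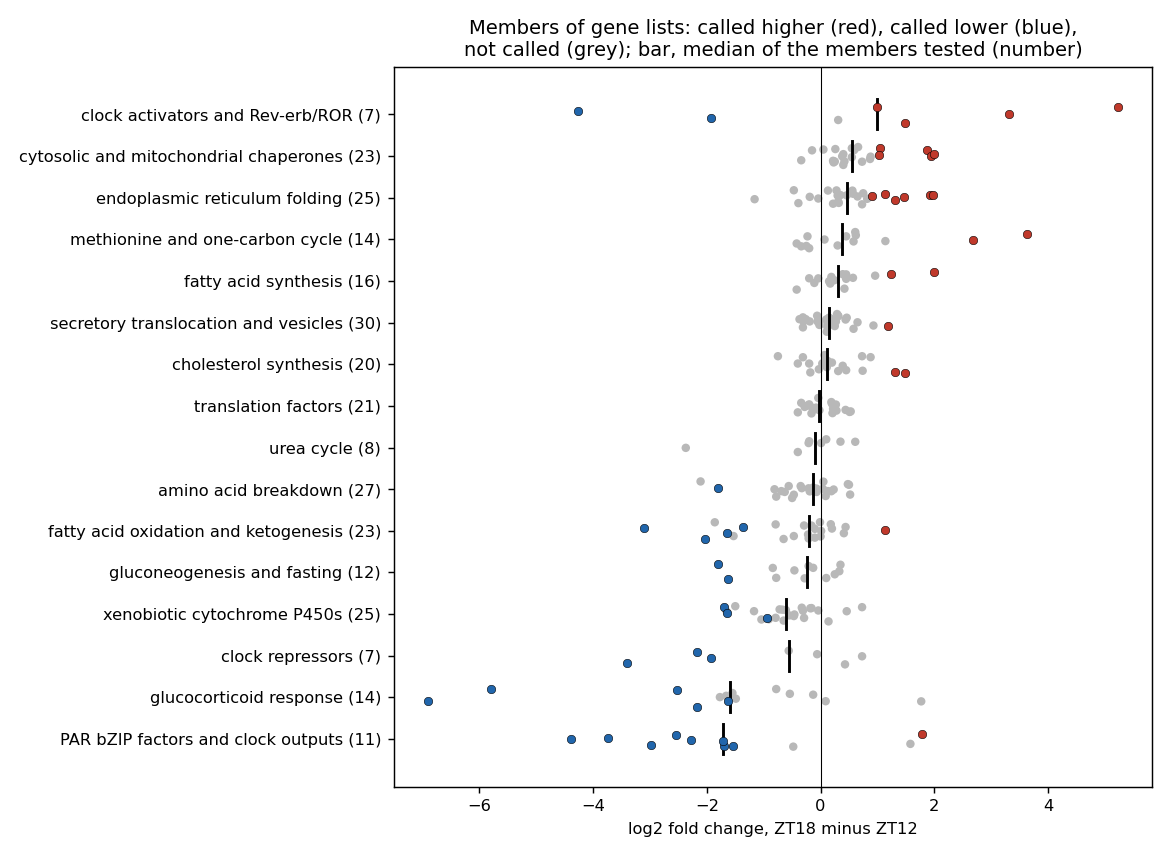
Log2 fold change from ZT12 to ZT18 (horizontal axis) of the members of 16 lists (rows, with the number tested). Each point is a gene, red where called higher, blue where called lower and grey where not called, and the bar is the median. PAR bZIP outputs (median -1.71) and glucocorticoid genes (-1.59) lie lowest, and clock activators (0.99), chaperones (0.55) and ER folding genes (0.46) lie to the right.

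The 5 libraries at ZT0 and ZT6 are not among the libraries compared above, although they share its filter and its estimate of the spread. They give each gene a second value, since a 24-hour sine wave has the same difference from ZT6 to ZT0 as from ZT12 to ZT18. A daily rhythm of another shape, such as a narrow peak, need not have it. A second value near 0 is thus no sign that a gene lacks a daily rhythm. Among the genes that rose, 166 of 198 (83.8%) had a positive ZT0 minus ZT6 value, against 52.4% of all genes tested. Among those that fell, 129 of 148 (87.2%) had a negative one, against 47.6%. In that second contrast, 42 genes (0.476%) were called higher and 49 (0.556%) lower. Of these, 21 were among the genes that rose and 24 among those that fell between ZT12 and ZT18, and 1 gene that fell was called in the opposite direction. The median second change was 0.52 for the genes that rose and -0.57 for those that fell. The genes were selected on the first contrast (medians 1.40 and -1.38), so the sizes are not compared.

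All 18 genes called on the lists of clock genes and clock outputs had the same sign in the second contrast, and 10 were called in it. Dbp had 2.89 CPM at ZT0 and 120 at ZT6 (log2 -5.37, adjusted p = 5.9e-07), and Arntl 22.2 and 1.9 (log2 3.47, adjusted p = 0.0013). Outside the clock, Chka had 181 and 21.9 CPM (log2 3.03, adjusted p = 7.7e-04), Tubb2a 147 and 40.9 (adjusted p = 3.9e-04) and Hsp90aa1 315 and 84.1 (adjusted p = 0.00104). Mt1 had 44.9 and 289 CPM (adjusted p = 0.00491). These genes were thus high, or low, at ZT0 as at ZT18. Hspa5, not called above, was called here, at 984 and 296 CPM (log2 1.73, adjusted p = 0.0114). Cry1 likewise had 41 and 7.5 CPM (adjusted p = 0.00508). Several other genes had values near 0 or of the other sign. Lpl had 57.6 CPM at ZT0 and 35.8 at ZT6 (log2 0.70), Foxo1 30.3 and 32.4 (log2 -0.10), Btg2 69.9 and 125 (log2 -0.83) and Rps12 11.6 and 10.1 (log2 0.15), none of them called. Over the 4 times, the highest mean was at ZT18 for 153 of the 198 genes and at ZT0 for 43. The lowest mean was at ZT12 for 152 of them. For the 148 genes that fell, the lowest mean was at ZT18 for 109 and at ZT0 for 36, and the highest was at ZT12 for 111. The genes were selected for a difference between ZT12 and ZT18, which favours these times in such counts, so the counts are a description only.

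**Figure D4:**
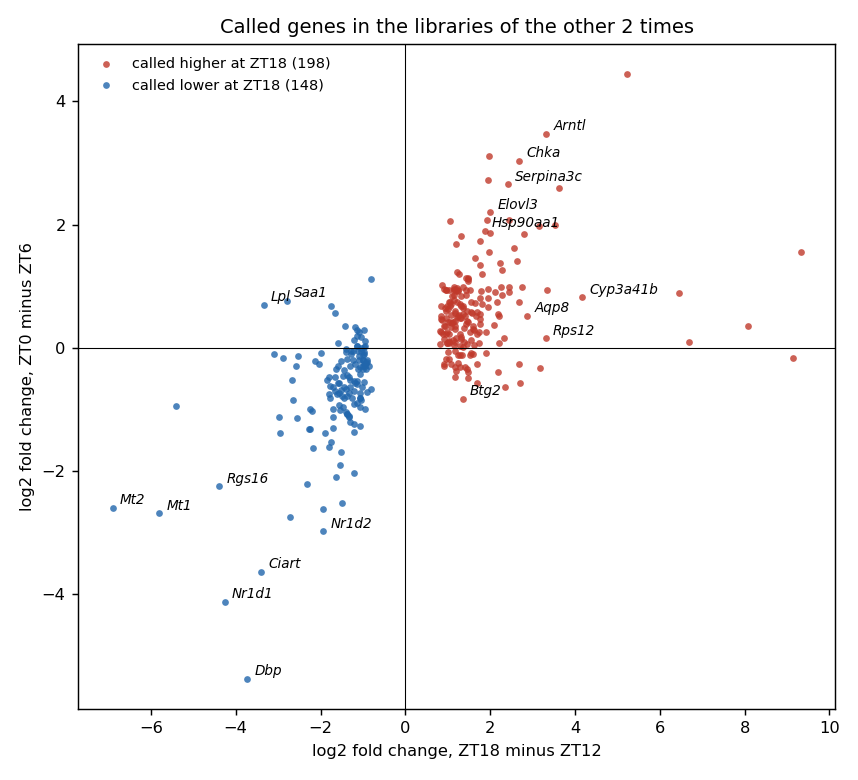
Log2 fold change from ZT6 to ZT0 (vertical axis) against that from ZT12 to ZT18 (horizontal axis) for the 346 genes called between ZT12 and ZT18. Red points were called higher at ZT18 and blue points lower, and 166 red points lie above 0 and 129 blue points below 0. Lpl and Saa1 are among the blue points above 0, and Btg2 among the red points below.

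The liver lobule runs from periportal hepatocytes, near the incoming blood, to pericentral ones, near the draining vein. Cells of each library were ranked by 16 landmark genes, 8 per zone, and the outer zones of 3 of equal size, pericentral and periportal, were summed apart. Within the pericentral zone 150 of 8816 genes (1.70%) were called between ZT12 and ZT18, and within the periportal zone 202 of 8773 (2.30%). These zones come from the same libraries as the whole, so the values are not independent of it. All 188 genes called higher that could be tested in the pericentral zone had a positive value there, as had all 189 in the periportal zone. The same held with negative values for all 147 and 145 genes called lower. The log2 change of Dbp was -3.85 in pericentral cells and -3.62 in periportal cells, and that of Pck1 -1.88 and -1.57.

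A difference between zones in the change itself was called for 4 of 8812 genes (0.0454%), with 636 at an unadjusted p below 0.05. Acly, which makes cytosolic acetyl-CoA for lipid synthesis, stood at 232, 128 and 120, then 600 and 327 CPM in the pericentral zone. In the periportal zone it stood at 651, 382 and 613, then 624 and 520 CPM. It was thus higher at ZT18 in pericentral cells, with no overlap, and overlapped in periportal cells. The log2 changes were 1.56 ± 0.35 and 0.07 ± 0.27, with a difference of -1.44 ± 0.23 (adjusted p = 0.00144), and without ZT18A the adjusted p was 0.462. Ier2, an immediate early gene chosen after its values were seen, behaved alike, with pericentral values of 23.6, 25.7 and 17.1, then 70.1 and 64.9 CPM, and periportal values of 38.8, 37.3 and 28.2, then 30.8 and 29.1 CPM. Its difference was -1.78 ± 0.29 (adjusted p = 0.00144; 0.0948 without ZT18A and 0.0641 without ZT18B). Cyp7b1, a hydroxylase of bile acid synthesis, went from 8.82, 7.3 and 119 to 153 and 168 CPM in periportal cells. In pericentral cells it overlapped, at 122, 56.9 and 405, then 181 and 226 CPM. The difference was 1.96 ± 0.28 (adjusted p = 2.2e-04) and stayed called with any 1 library left out, although ZT12C stood far above the other ZT12 libraries in both zones. Cyp2a4 had a difference of -6.76 ± 0.73 (adjusted p = 5.6e-07), which rests on ZT12B, at 116 CPM in periportal cells against 5.29 and 1.34 in the other ZT12 libraries. Without ZT12B its adjusted p was 0.421. Cyp2a4 is also a near copy of Cyp2a5, so its counts are uncertain.

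**Figure D5:**
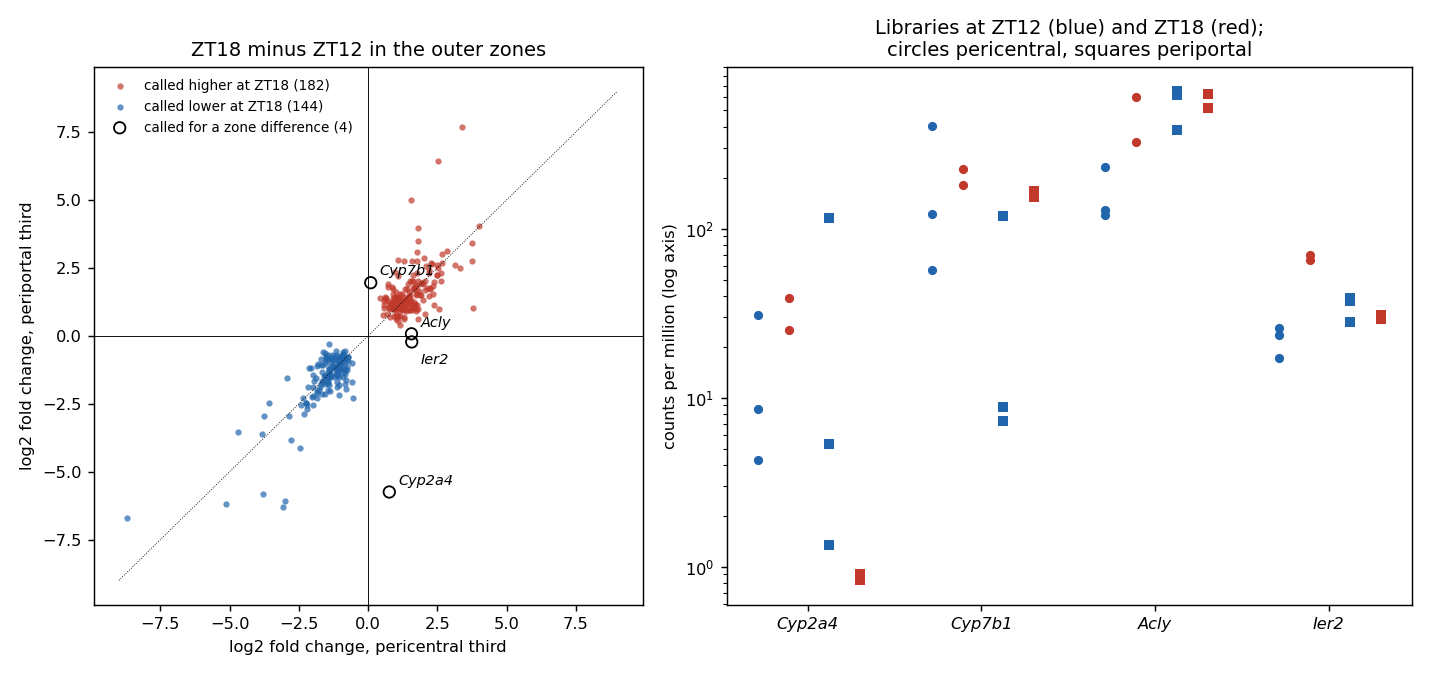
Left, log2 fold change from ZT12 to ZT18 in the periportal zone (vertical axis) against the pericentral zone (horizontal axis) for called genes tested in both (red higher, blue lower), with the 4 genes called for a zone difference ringed. Right, CPM (log axis) of those 4 genes in each library, blue at ZT12 and red at ZT18, circles pericentral and squares periportal. Called genes lie in the quadrants of equal sign, and Acly and Ier2 are higher at ZT18 in the pericentral circles alone.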

How the data were processed

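The deposited tables hold UMI counts per gene and cell, which the authors made with Cell Ranger, per the submitters' processing notes. These notes list the builds mm10 and hg19. The Cell Ranger version and strand settings are not given in the sources used here. All cells in the files were used, each with 1048 UMIs or more. Cells were not filtered and no doublet caller was run. The counts were summed per library. Left out were 21 Mup, 905 Gm-numbered and 27 -ps entries and 12 other annotated pseudogenes, since the name does not show which Gm entries are ribosomal copies. Gene names are lower case in the files and were matched to GENCODE M21 (14321 entries) or RefSeq (371), and 120 stayed unmatched.

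Genes whose mean over the 10 libraries reached 3 CPM were tested with edgeR 4.0.16 (glmQLFit, glmQLFTest, TMM, 1 mean per time, Benjamini-Hochberg), so that all times share 1 estimate of the spread. DESeq2 1.42.0 and limma 3.58.1 were alternatives (R 4.3.3). The scripts were tested on simulated data. The interaction of zone and time had the library as a block. Errors are SD over libraries or the SE of the fit. Named were the 12 largest rises and falls above 10 CPM without overlap, the 8 most abundant called genes, all clock genes, up to 4 called and 2 not called members per list, haemoglobin genes and the 3 genes with the smallest p for a zone difference. Other names were chosen after their values were seen. The members and the gene lists were chosen with earlier results of these data known. A few genes that this rule names are not reported here.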

Additional observations from a re-analysis of the deposited data

Results flagged for a closer look

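Between zones, the change from ZT12 to ZT18 differed by the interaction test in 4 genes. The periportal minus pericentral difference in log2 change was -1.44 for Acly, -6.76 for Cyp2a4, 1.96 for Cyp7b1 and -1.78 for Ier2. That of Cyp2a4 had an adjusted p of 0.421 without ZT12B, and that of Acly 0.462 without ZT18A. The entries left out of the tests held signal that was higher at ZT18. Gm-numbered entries took 0.737% of UMIs in ZT18A and 0.7195% in ZT18B, against 0.2854% to 0.3273% at ZT12. Entries with -ps in the name took 0.18% and 0.1887%, against 0.0396% to 0.04935% at ZT12. With 2 and 3 libraries per group, single libraries were not tested as outliers.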

How the results depend on the processing

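The count of genes called between ZT18 and ZT12 (346) was 560 with no CPM filter and 214 with at least 20 CPM. It lay between 294 (limma-voom) and 432 (left-out entries kept) under the other settings of scale, tool, entries and cells. Without 1 library in turn it ranged from 42 to 404. The labels tie the letters to no animal or day. Same-letter deviations correlated at 0.1044 and 0.06197 between ZT12 and ZT18 (2 pairs, in different index columns). With 2 libraries at ZT18, their deviations mirror each other, so ZT12A with ZT18B gave -0.1044. ZT12C with ZT18B, of different letters, gave 0.05728. Between ZT0 and ZT12 same-letter deviations correlated at 0.2364, 0.3824 and 0.4455, where the pairs share index columns 3, 7 and 5. A fit with the index column as a term gives no ZT18 minus ZT12 value, since column 4 holds ZT18 alone. With the letter as a replicate block, 506 genes were called, 342 of them in common. The count also called between ZT0 and ZT6 in the same direction (45) was 71 with DESeq2, 86 with no CPM filter, 26 with at least 20 CPM and 85 with the replicate block, and 16 to 43 without 1 library. The zone difference count (4) was 8 by library size alone, 7 with narrower zones and 8 without the 5% of cells with most UMIs, each including the 4, and 2 to 14 without 1 library. The cause of these moves was not tested, beyond the smaller or larger number of genes or libraries. Of 79 named genes called, 70 were called by library size alone, and the signs of all held. At ZT18 Npas2 had 7 UMIs and Nr1d1 2.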

Other observations

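A few other genes were chosen after their values were seen. Some differed in ways the groups do not capture, and others were called between ZT12 and ZT18. Cyp26a1, which degrades retinoic acid, stood at 74.5 CPM in ZT18A and 2.62 in ZT18B, against 7.22 to 10.3 CPM at ZT12, and was not called (adjusted p = 0.25). Scand1 stood at 0, 35.9 and 31.6 CPM at ZT12 and at 0.331 and 1.75 at ZT18 (adjusted p = 0.089). Tmem238 followed it, at 3.45, 55.3 and 42.8, then 3.31 and 7.87 CPM (adjusted p = 0.109), so that for both genes ZT12A lay with the ZT18 libraries. Glul, the glutamine synthetase of pericentral cells, stood at 620, 243 and 1187, then 171 and 93 CPM, and was not called (adjusted p = 0.0783). Isg15, an interferon-response gene, fell from 12.8 ± 2.16 to 1.68 ± 0.507 CPM (adjusted p = 0.00199) and was called with any 1 library left out. Tox, a transcription factor gene, had 74 UMIs at ZT12 and 1 at ZT18 (adjusted p = 0.00288). The mitochondrial protease subunit Clpx rose from 39.9 ± 9.33 to 191 ± 4.82 CPM (adjusted p = 1.1e-04), and the succinate receptor Sucnr1 from 23.9 ± 7.84 to 71.5 ± 4.22 CPM (adjusted p = 0.00326), both also called with any 1 library left out.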
